A study of Mus musculus with 15 samples.

Results

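The Bcl2 family was followed in invariant natural killer T (iNKT) cells through 10 genes: Bcl2, Bcl2l1, Mcl1, Bcl2a1b and Bcl2a1d, which protect cells from death, Bcl2l11, Bbc3 and Pmaip1, which are BH3-only triggers of death, and the effectors Bax and Bak1. They were taken by name as the family members that set the survival of lymphocytes, and are 10 of the 48795 genes listed. RNA-seq had been run on iNKT cells from WT C57BL/6 mice of 6 weeks, and no other genotype, drug or infection was used. The cells came from 4 sites: thymus (n = 4), spleen (n = 4), mesenteric lymph nodes (mLN, n = 4) and inguinal lymph nodes (iLN, n = 3, since replicate 1 was not analysed here). They were sorted as cells positive for the CD1d tetramer and TCRβ and negative for B220, CD11b, CD11c and CD8. LNs had been digested with enzymes before the sort, whereas thymus and spleen were only strained, so in comparisons of LNs with thymus or spleen, tissue and digestion cannot be told apart. Replicates 1 and 2 belonged to the second batch and replicates 3 and 4 to the first in every tissue. The labels call the replicates biological without saying whether each is a mouse or a pool, and p-values measure only the spread between these samples.

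The family controls the mitochondrial path to apoptosis. Bcl2, Bcl-xL (from Bcl2l1), Mcl1 and A1 (from the Bcl2a1 genes) hold Bax and Bak in check, BH3-only proteins such as Bim (Bcl2l11), Puma (Bbc3) and Noxa (Pmaip1) bind and block these protectors, and freed Bax and Bak permeabilise the outer mitochondrial membrane. Naive T cells are known to depend on the level of Bcl2 against that of Bim. In bulk RNA from sorted cells, fewer cells of a type and less RNA per cell cannot be told apart.

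The sort was checked first. The 7 T and iNKT cell markers summed to between 2330 and 3990 CPM (counts scaled to the normalised library size) in every library, and none was at 0. Genes of other cells were low but moved with tissue: the 5 B cell markers summed to 1.47 to 6.54 CPM in thymus and reached 223 CPM in spleen replicate 1 and 99.7 CPM in mLN replicate 1. The 6 markers of immature thymocytes summed to 13.5 to 64.7 CPM in thymus and to at most 13.5 CPM elsewhere, and Rag1 and Dntt were at 0 in mLN and iLN. These markers did not all move together. Mean Ptcra was 0.96 CPM in thymus and 1.32 in spleen, and mean Cd8b1 was 3.28 CPM in thymus and 3.69 in iLN. The 4 globin genes summed to 22.4 to 117 CPM in spleen, 0.569 to 13.8 CPM in thymus and at most 3.95 CPM in LNs. The 7 myeloid markers reached 51.9 CPM in spleen replicate 1 and at most 17.7 CPM in the other libraries, and the 3 NK cell markers stayed at or under 3.59 CPM. The libraries held 1152702 (thymus replicate 2) to 8670570 counts.

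The sequences of 2 pairs of genes bear on how they can be read. Bcl2a1b (ENSMUSG00000089929, chr9:89199209-89207827, plus strand) and Bcl2a1d (ENSMUSG00000099974, chr9:88723285-88731914, minus strand) are near-identical copies, and the coordinates here are those of GENCODE on GRCm38. Their coding sequences of 516 bases had 510 bases in common (98.8%), and the longest run without a difference was 217 bases. Reads that lie wholly within such a run cannot be assigned to one copy. How many reads this affected was not tested. A further copy, Bcl2a1a, shared 509 of 516 coding bases with Bcl2a1d and 505 with Bcl2a1b. Its level, at most 1.08 CPM, rests on the same assignment of reads. The first 90 coding bases of Bcl2a1b and Bcl2a1d, from GENCODE, show the differences G4T and T48C in capitals (Bcl2a1b first, counted from the A of the start codon).

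Bcl2a1b: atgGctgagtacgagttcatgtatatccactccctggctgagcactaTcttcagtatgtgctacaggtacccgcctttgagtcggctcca
Bcl2a1d: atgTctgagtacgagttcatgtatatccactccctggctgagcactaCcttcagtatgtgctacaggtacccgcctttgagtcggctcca

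The second pair is shown by the 250 bases before the start of Bcl2 (chr1:106714291-106714540, minus strand), the member called between tissues, and of Bcl2l11 (chr2:128125788-128126037, plus strand), whose transcription is known to be driven by forkhead factors of the Foxo family. Both are from RefSeq on GRCm38.p6, and capitals mark the forkhead letters GTAAACA.

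Bcl2: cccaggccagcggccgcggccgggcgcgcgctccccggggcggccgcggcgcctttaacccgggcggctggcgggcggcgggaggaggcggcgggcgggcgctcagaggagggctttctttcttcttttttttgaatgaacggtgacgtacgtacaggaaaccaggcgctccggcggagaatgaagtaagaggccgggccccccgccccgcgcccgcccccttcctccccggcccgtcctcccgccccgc
Bcl2l11: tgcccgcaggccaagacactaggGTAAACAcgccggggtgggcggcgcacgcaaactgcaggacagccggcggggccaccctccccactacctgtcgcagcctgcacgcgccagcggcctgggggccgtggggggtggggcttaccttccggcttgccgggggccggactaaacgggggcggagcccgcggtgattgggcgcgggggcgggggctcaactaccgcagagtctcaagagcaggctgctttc

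The 4 motifs searched on both strands of the RefSeq promoters, which run from 250 bases before to 50 after the start, were GTAAACA (forkhead), GGANTTTCC (NF-kB), TGACTCA (AP-1) and TTCCNGGAA (STAT). The forkhead letters began 227 bases before the start in the first promoter of Bcl2l11, were not in its second, and were also in 1 of the 3 promoters of Bbc3. The promoter of Pmaip1 was not searched. They were in 3.65% of all 32851 promoters. None of the 4 motifs was in the window of Bcl2, which had a GC content of 76.0% against a median of 52.7% over all promoters. Such matches describe letters and not bound sites.

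Measured per length, in TPM, the A1 genes were the most abundant of the 10. Bcl2a1b had a mean of 167 TPM over the 15 libraries (range 93.7 to 253) and Bcl2a1d of 122 TPM (76.7 to 189). Mcl1 followed with 93.6 TPM (58.9 to 159) and Bcl2 with 53.6 TPM (23.1 to 111). These 4 ranges overlapped, but within each library both A1 genes were above Bcl2. Other orders varied. In mLN replicate 2, Bcl2a1d (147.2 TPM) was above Bcl2a1b (135.5 TPM), and in thymus replicate 2, Bcl2 (110.5 TPM) was above Mcl1 (101.8 TPM). Among the death genes, Bcl2l11 had 37.5 TPM (18.6 to 59.8), Bax 31.7 TPM (13.1 to 56.0) and Bak1 30.8 TPM (12.9 to 40.6), which their spread did not separate. Bcl2l1 lay lower at 13.4 TPM (5.08 to 26.6). Bbc3 was near the detection limit at 1.73 TPM and Pmaip1 at 0.185 TPM.

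**Figure D1:**
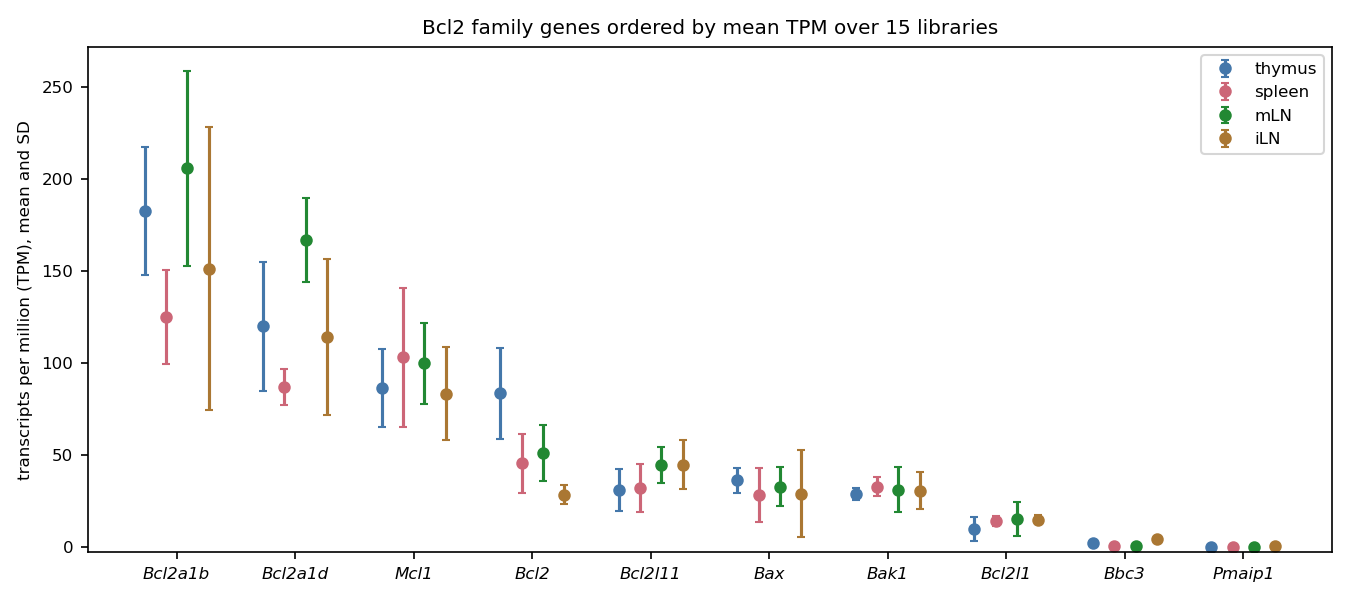
Mean level (points) and SD (bars) of each gene in TPM, by tissue, with the genes ordered by their mean over the 15 libraries. Bcl2a1b (167 TPM) and Bcl2a1d (122 TPM) lead, Bcl2 is the gene whose thymus value stands above its iLN value without overlap of the bars, and Bbc3 and Pmaip1 lie close to 0.

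Bcl2 was the member whose difference between tissues was called, and it was higher in thymic iNKT cells than in iNKT cells from the other sites. Bcl2, the founding member and the target of the drug venetoclax, had 479.8, 363, 317 and 345 CPM in the 4 thymus libraries. Spleen had 237, 213, 175 and 171 CPM. The mLN libraries had 164, 309, 155 and 195 CPM, and the 3 iLN libraries 127, 120.3 and 156 CPM. Every thymus library was above every other library, and mLN replicate 2 alone came near them. Spleen and mLN overlapped throughout, and every iLN library was below every spleen library, while iLN replicate 4 overlapped with mLN. The means were 376 ± 71.7 CPM in thymus (SD, n = 4), 199 ± 31.9 in spleen (n = 4), 206 ± 70.9 in mLN (n = 4) and 135 ± 18.9 in iLN (n = 3).

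Counts were compared with edgeR's quasi-likelihood test on 13600 genes, with the batch as a covariate and a call at a Benjamini-Hochberg adjusted p under 0.01 with a fold over 1.5. Of the 10 genes, 9 passed the filter on low counts and Pmaip1 did not, and Bcl2 was the 1 member called in each comparison that called any. Over the 4 tissues together, where no fold applies, Bcl2 had an adjusted p of 0.00045, 1 of 9 members against 3.38% of all genes tested.

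Between thymus and spleen, Bcl2 was higher in thymus by 0.92 on the log2 scale (SE 0.18, adjusted p = 0.00672), 1 of 9 members against 1.32% of all genes. The other 8 were not called, and the median change of the 9 was 0.39 against -0.01 for all genes. Within the batches the Bcl2 difference was 0.93 in the first and 0.90 in the second. The call was lost without any 1 of the thymus and spleen libraries or without mLN replicate 4, with a log2 difference between 0.83 and 0.98 and an adjusted p up to 0.0408 over the 15 fits that each left out 1 library. It was also lost with no batch term (adjusted p = 0.0313).

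Between iLN and thymus, Bcl2 was lower in iLN, with a log2 change of -1.41 (SE 0.21, adjusted p = 0.000411), 1 of 9 members against 1.5% of all genes. The median change of the 9 was -0.06 against 0.03 for all genes. This call was kept in 15 of 15 fits that left out 1 library, with a change between -1.61 and -1.25 and an adjusted p up to 0.00611. The change was -1.27 within the first batch and -1.74 within the second, where iLN had 1 library. Between mLN and thymus, Bcl2 was lower in mLN, with a log2 change of -0.88 (SE 0.18, adjusted p = 0.00886), 1 of 9 members against 1.6% of all genes. That call held in only 3 of 15 such fits, those without mLN replicate 2, iLN replicate 2 or iLN replicate 4, and the adjusted p went up to 0.0506 without thymus replicate 1. It was lost with no batch term (adjusted p = 0.0409).

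With both LNs set against spleen and thymus, Bcl2 was lower in LNs, with a log2 change of -0.68 (SE 0.14, adjusted p = 0.00554), 1 of 9 members against 1.72% of all genes. Against spleen alone, Bcl2 was called in neither LN, and mLN differed from spleen by 0.05. The median change of the 9 was -0.09 against 0.02 for all genes. Leaving out thymus replicate 1, 3 or 4, spleen replicate 1, 3 or 4, mLN replicate 3 or iLN replicate 2 or 3 raised the adjusted p above 0.01, up to 0.0252, with a change between -0.82 and -0.60. Without a batch term the call was lost (adjusted p = 0.0170).

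The remaining 3 comparisons called none of the 9 members. Between mLN and spleen, where 0.654% of all genes were called, Bcl2 differed by 0.05 (SE 0.18, adjusted p = 0.955). Between iLN and spleen, where 1.55% were called, Bcl2 was -0.49 in iLN (SE 0.20, unadjusted p = 0.0252, adjusted p = 0.218). Between iLN and mLN, where 0.471% were called, it was -0.54 (SE 0.20, adjusted p = 0.224). At an unadjusted p under 0.05, 3, 3 and 2 of the 9 members passed in these comparisons, while 12.2%, 16.4% and 13.8% of all genes did, and DESeq2 called 0 members in each, against 1.82%, 4.09% and 2.03% of all genes. Bbc3 was among those that passed in iLN against spleen and against mLN. In fits of only the groups compared, it passed the filter on low counts only with iLN.

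**Figure D2:**
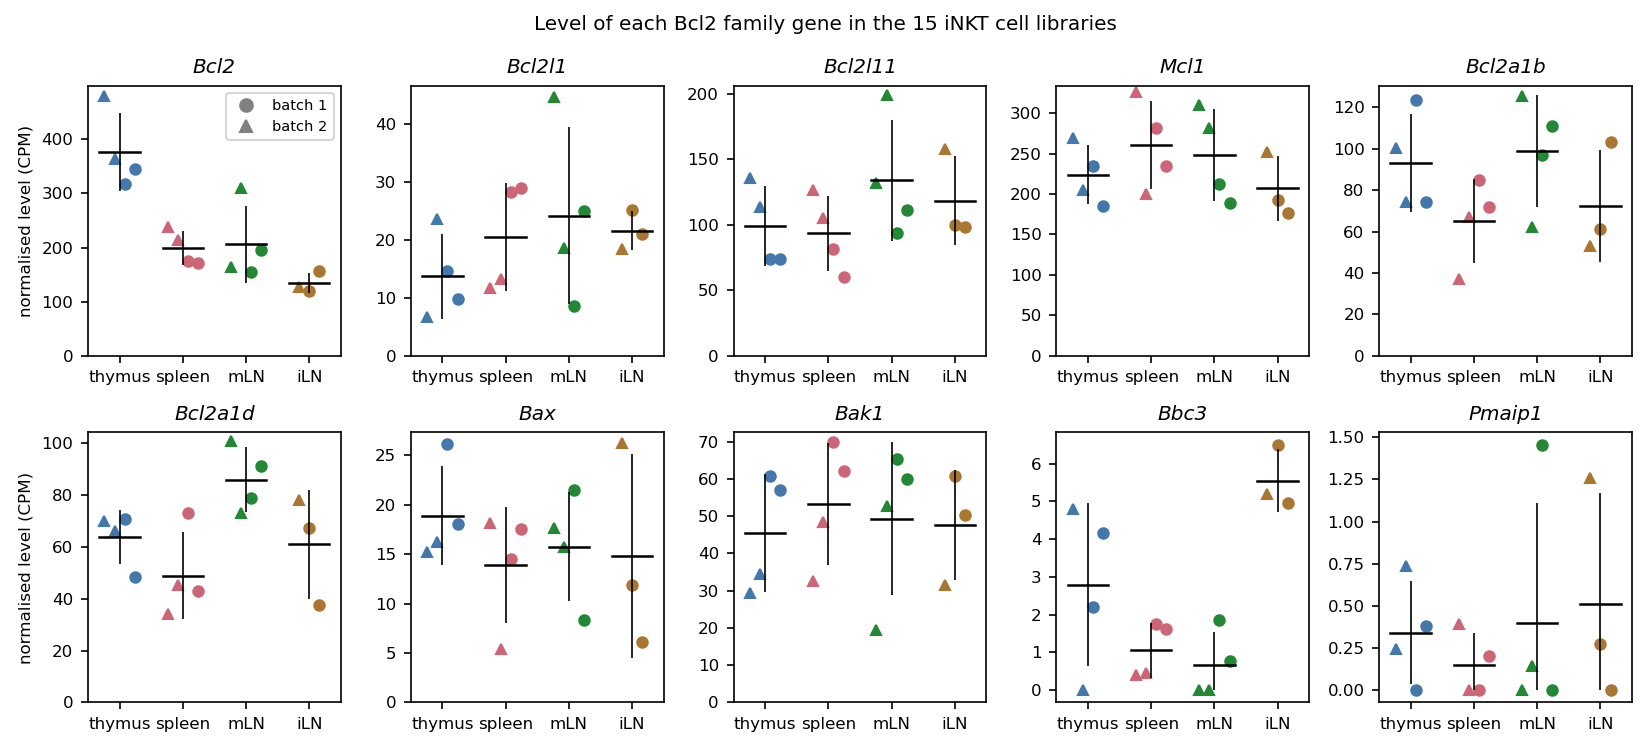
Level of each of the 10 genes in CPM (y axis, a separate scale for each gene) in the 15 libraries, by tissue. Circles are the first batch, triangles the second, horizontal lines the tissue means and vertical lines the SD, drawn no lower than 0. Every thymus library lies above every other library for Bcl2, and for Bak1 the triangles lie mostly below the circles.

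Bcl2 has 2 annotated transcripts in GENCODE. Their shares were solved from the gene length that the quantification reports for each library. This assumes that the authors' annotation, whose release is not given, held only these 2 with the same lengths. Bcl2-201 is the spliced form with 2 exons, 7191 bases and a coding sequence of 708 bases. Bcl2-202 is a single exon of 2841 bases with a coding sequence of 597 bases, of which 875 bases lie in the first exon of Bcl2-201 and 1966 in its intron, so reads from unspliced RNA can be counted to it. Bcl2-202 made up 17.7, 40.1, 39.4 and 27.3% of Bcl2 transcripts in thymus and 21.9, 36.5, 33.8 and 28.6% in spleen. It made up 42.1, 28.0, 47.6 and 47.9% in mLN and 16.4, 42.5 and 2.2% in iLN. The tissues overlapped and iLN spread over nearly the whole range. Other genes also lie over these loci, and the strand setting of the counting is not given in the sources used here, so reads cannot be assigned with certainty. Over Bcl2 (19929 counts in all) lie the antisense D630008O14Rik (414 counts) and Gm37053 on the same strand (870 counts), over Bak1 (3877 counts) Ggnbp1 on the opposite strand (443 counts), and over Bcl2a1d (5352 counts) the antisense Gm10634 (96 counts).

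In TPM, which is scaled by transcript length and by a different library total from CPM, Bcl2 separated the tissues less. On that scale thymus had 98.0, 110.5, 59.4 and 66.0 TPM and spleen 61.8, 55.6, 27.7 and 36.1 TPM, so that thymus replicate 3 fell below spleen replicate 1. Within each batch both thymus libraries remained above both spleen libraries. The mLN libraries had 39.7, 71.4, 39.5 and 53.5 TPM and the iLN libraries 28.3, 23.1 and 33.5 TPM. Thymus and iLN did not overlap on either scale. Tested with limma on log2(TPM + 1), the change between iLN and thymus was -1.41 with an adjusted p of 0.0125, and that between thymus and spleen 0.89 with an adjusted p of 0.135.

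Of the other protective genes, Mcl1, a short-lived protein on which most lymphocytes depend, was not called in any comparison. It had 269, 205, 235 and 186 CPM in thymus, 326, 201, 282 and 234 in spleen, 310.5, 281, 213 and 189 in mLN, and 252, 192 and 177 in iLN. The 4 tissues overlapped. Its change of greatest size was -0.30 in iLN against spleen (SE 0.18, adjusted p = 0.455). Bcl2l1, which encodes Bcl-xL and is known for the survival of double-positive thymocytes, ranged from 6.79 CPM in thymus replicate 1 to 44.6 CPM in mLN replicate 1. In spleen it split by batch, with 28.2 and 28.9 CPM in the first and 11.7 and 13.2 CPM in the second. Its change of greatest size was 0.90 in mLN against thymus (SE 0.49, adjusted p = 0.459).

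The A1 genes, which are induced by antigen receptor and NF-kB signals, had their highest mean in mLN and their lowest in spleen. Summed over the copies, they had 226, 135, 176 and 202 CPM in mLN and 71.0, 112, 158 and 115 CPM in spleen. Thymus had 170.2, 140.4, 194 and 123 CPM and iLN 131, 129.5 and 141 CPM. Of the mLN libraries replicate 2 alone was within the spleen range, and thymus and iLN both overlapped with spleen. Between mLN and spleen the sum differed by 0.72 (SE 0.21, unadjusted p = 0.00289, adjusted p = 0.107) and was not called. Taken singly, Bcl2a1d differed by 0.82 (SE 0.26, adjusted p = 0.152) and Bcl2a1b by 0.63 (SE 0.26, adjusted p = 0.303). Bcl2a1b took between 40.3% (iLN replicate 2) and 73.1% (iLN replicate 4) of the counts of the A1 genes, so the iLN libraries held both the lowest and the highest share.

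As a share of the summed TPM of the 5 protective genes, Bcl2 made up 17.3 ± 2.64% in thymus (SD, n = 4) and 11.9 ± 3.08% in spleen (n = 4). It made up 9.72 ± 3.62% in mLN (n = 4) and 7.30 ± 0.66% in iLN (n = 3). The shares overlapped except that every iLN library was below every spleen and thymus library. Mcl1 made up 17.9 ± 1.25% in thymus, 27.2 ± 7.89% in spleen, 18.7 ± 4.33% in mLN and 21.2 ± 3.87% in iLN. The sum itself was 482 ± 109 TPM in thymus, 374 ± 39.5 in spleen, 538 ± 76.2 in mLN and 391 ± 85.8 in iLN.

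Among the triggers of death, Bcl2l11, which encodes Bim and is known to be needed for the deletion of thymocytes and the death of T cells deprived of cytokine, had values in LNs somewhat above those of the same batch elsewhere. It had 135, 113, 74.1 and 74.0 CPM in thymus and 126, 105, 81.7 and 60.2 CPM in spleen. The mLN libraries had 132, 199, 93.8 and 111 CPM and the iLN libraries 158, 99.4 and 98.0 CPM. The tissues overlapped in the pooled values, and the second batch was higher in each tissue. Within the first batch the 4 LN libraries (93.8 to 111 CPM) were above the 4 others, and within the second mLN replicate 1 lay below thymus replicate 1. LNs were higher by 0.45 on the log2 scale (SE 0.12, adjusted p = 0.0369), which is under 1.5-fold and so no call. With an adjusted p under 0.05 and no minimum fold, 2 of 9 members would be called there, Bcl2 and Bcl2l11, against 4.26% of all genes, and without a batch term Bcl2l11 had an adjusted p of 0.425. On leaving out 1 library its adjusted p ran from 0.0161 to 0.0983, and it was under 0.05 only without thymus replicate 1, spleen replicate 3 or mLN replicate 1. Between mLN and spleen the difference was 0.52 (SE 0.16, adjusted p = 0.142), and between iLN and spleen 0.47 (SE 0.18, adjusted p = 0.169).

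Set against each other in the same library, Bcl2 and Bcl2l11 gave a ratio of counts that separated spleen from mLN, which overlapped in Bcl2 alone. It did not widen every difference: thymus and spleen differed by 0.82 in mean log2 ratio, against a fitted 0.92 for Bcl2 alone. The ratio was chosen after the values were seen and is given without a test. Thymus had 3.55, 3.21, 4.28 and 4.66 Bcl2 counts per Bcl2l11 count. Spleen had 1.88, 2.03, 2.14 and 2.83, mLN 1.25, 1.55, 1.65 and 1.76, and iLN 0.81, 1.21 and 1.59. Thymus lay above spleen and spleen above mLN without overlap, whereas iLN overlapped with mLN. The mean log2 ratio was 1.96 ± 0.25 in thymus, 1.13 ± 0.26 in spleen, 0.62 ± 0.22 in mLN (SD, n = 4 each) and 0.21 ± 0.49 in iLN (n = 3). On the TPM scale, spleen (0.20 to 0.95) and mLN (-0.30 to 0.57) overlapped, while thymus (1.29 to 1.73) and iLN (-1.08 to -0.04) still stood at either end.

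**Figure D3:**
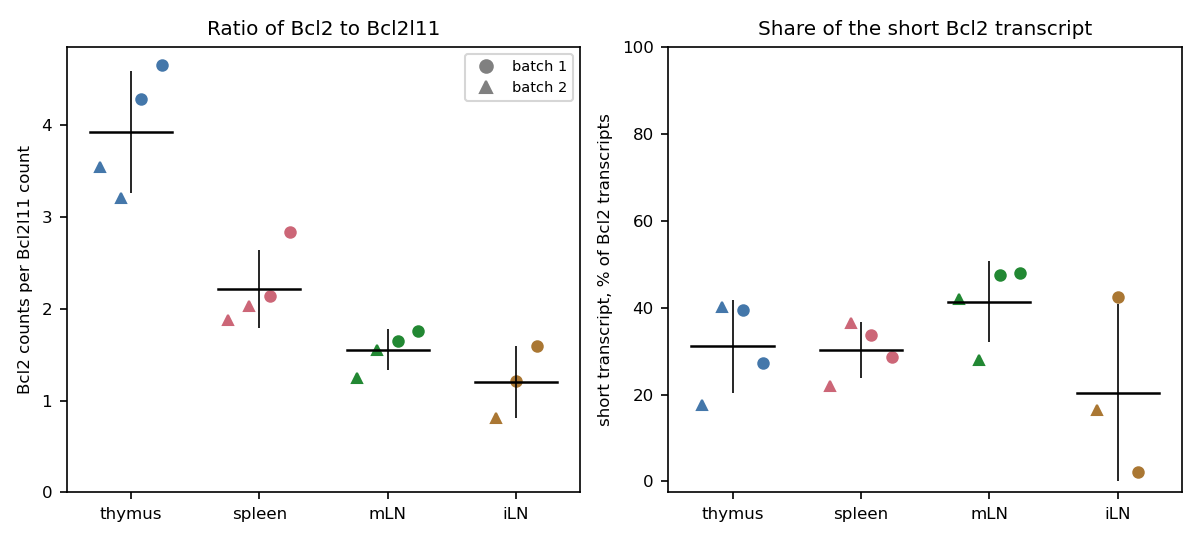
Left, Bcl2 counts per Bcl2l11 count in each library by tissue; right, the share of the short transcript Bcl2-202 in percent of Bcl2 transcripts. Circles are the first batch, triangles the second, lines the mean and SD. The ratio runs from 3.21 to 4.66 in thymus to 0.81 to 1.59 in iLN, and the transcript share overlaps between all tissues.

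Bbc3, which encodes Puma, a target of p53 and of forkhead factors, was scarce, with 186 counts in all 15 libraries and 3 libraries at 0. The iLN libraries had 5.20, 6.50 and 4.96 CPM and mLN 0, 0, 1.87 and 0.77 CPM. Spleen had 0.40, 0.45, 1.74 and 1.63 CPM and thymus 4.81, 0, 2.2 and 4.17 CPM. Each iLN library was above every other library, although the floor of 3 counts ranged from 0.296 to 2.21 CPM between libraries, and thymus replicate 2, at 0, was the shallowest. The fitted difference between iLN and mLN was 3.48 (SE 1.15, unadjusted p = 0.00721, adjusted p = 0.152) and that between iLN and spleen 2.54 (SE 1.09, adjusted p = 0.247). Between mLN and thymus it was -2.79 (SE 1.12, adjusted p = 0.256). At such counts the fitted size depends on the prior count, and none of these was called. In fits of only the groups compared, Bbc3 passed the filter on low counts in those with iLN and in none without it. It was thus tested because of the tissue where it is highest, and its p-values are no support for a difference. Pmaip1, which encodes Noxa, had 26 counts over all libraries and at most 7 in any, so no difference was detectable at this depth.

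The effectors did not separate the tissues. Bax, which moves from the cytosol to mitochondria, had 15.2 to 26.2 CPM in thymus, 5.41 to 18.2 in spleen, 8.28 to 21.4 in mLN and 6.16 to 26.2 in iLN. Its change of greatest size was 0.45 in thymus against spleen (SE 0.47, adjusted p = 0.863). Bak1, which sits in the outer mitochondrial membrane, had 29.4, 34.5, 60.9 and 56.9 CPM in thymus and 32.6, 48.5, 69.8 and 62.2 in spleen. It had 19.4, 52.7, 65.3 and 59.9 CPM in mLN and 31.6, 60.7 and 50.3 in iLN. In each tissue the second batch was below the first. Its change of greatest size was -0.30 in iLN against spleen (SE 0.28, adjusted p = 0.663).

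**Figure D4:**
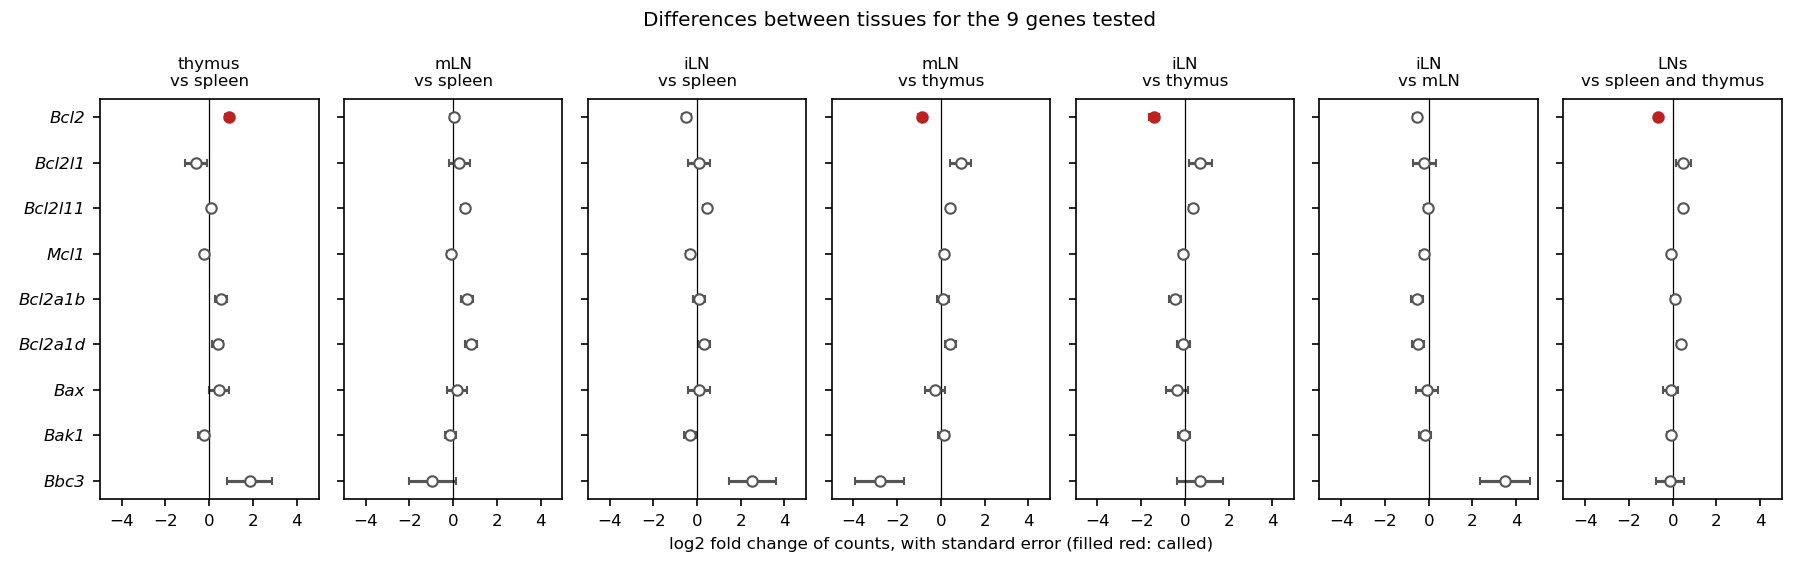
Log2 fold changes of counts (x axis, bars are the standard error) of the 9 genes tested in the 7 comparisons of tissues. Filled red points are called, and each of the 4 is Bcl2, at 0.92, -0.88, -1.41 and -0.68; the Bbc3 points have the widest bars.

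The genes whose log2 CPM ran most like that of Bcl2 over the 15 libraries, after the batch means were removed, were Trf, Itga1 and Nme1, out of 10145 genes with a mean of at least 5 CPM. Trf, which encodes transferrin, had a Pearson r of 0.94 (n = 15). Its mean was 31.1 CPM in thymus, 7.55 in spleen, 9.95 in mLN and 2.04 in iLN. Itga1, the alpha1 chain of a collagen-binding integrin, had r = 0.91 and means of 105, 27.1, 26.9 and 13.0 CPM in the same order. Nme1, a nucleoside diphosphate kinase, had r = 0.91 and means of 54.6, 33.7, 36.3 and 28.7 CPM. The points share libraries and tissues, so the correlations are a description. Among the members, Bcl2 had r = -0.50 with Bcl2l1 and -0.24 with Bcl2l11.

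iNKT cells fall into subsets with their own genes, and the summed levels of these markers also differed between tissues. The 4 NKT17 markers summed to 216 to 441 CPM in iLN, 26.0 to 58.2 in mLN, 4.47 to 11.9 in spleen and 7.44 to 28.7 in thymus. The 4 NKT1 markers summed to medians of 1560 CPM in thymus, 1520 in spleen, 973 in mLN and 869 in iLN. The 4 NKT2 markers had medians of 116, 160, 203 and 227 CPM in that order. The markers within a list did not all move together. Mean Il2rb, which made up most of the NKT1 sum, was 1363 CPM in thymus and 1383 in spleen, where Ifng was 7.91 and 17.5 CPM. From thymus to mLN, mean Il17rb rose from 30.8 to 77.8 CPM and Ccr7 from 6.96 to 45.1 CPM. Gata3 (75.6 and 75.7 CPM) and Il4 (5.73 and 6.64 CPM) changed little. The part of the subsets or of the immature thymocyte genes in the level of Bcl2 was not tested.

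Other genes of the death and survival paths were counted from lists. Of the less used family members, 1 of 4 protective genes, 4 of 5 BH3-only genes and 4 of 7 effector and divergent genes passed the filter, and 0 were called by edgeR in any of the 7 comparisons of tissues. Of all genes, 3.94% were called in at least 1 of them. Bcl2l2 (Bcl-w) had 2.57 TPM and Bcl2a1c 0.451 TPM on average, Bad 10.1 and Bid 6.05 TPM, and Bnip3l, a mitophagy receptor, 69.2 TPM and Bcl2l13 8.62 TPM. The apoptosome, caspases and their inhibitors had 19 of 19 genes tested and 0 called. At an unadjusted p under 0.05, 1 to 6 of its genes passed per comparison, while 10.6% to 17.6% of all genes did. Its median change ran from -0.31 (iLN against mLN) to 0.11 (mLN against spleen), and Birc6 (148 TPM) and Birc3 (87.2 TPM), of the inhibitor of apoptosis family, had the highest levels. The p53 pathway had 10 of 13 tested and, beside the same 3.94%, 0 called, and its highest levels were those of Mdm4 (214 TPM) and Trp53 (163 TPM).

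In the death receptor pathway, 11 of 12 genes were tested, and the ligands Fasl and Tnfsf10 were lower in LNs. The list had 1 of 11 called in iLN against spleen and in iLN against thymus, where 1.55% and 1.5% of all genes were, and 2 of 11 in LNs against spleen and thymus, where 1.72% were. Fasl, the ligand of Fas with which cytotoxic lymphocytes kill, had 65.7 to 113 CPM in thymus, 74.9 to 87.7 in spleen, 43.5 to 66.0 in mLN and 29.4 to 30.9 in iLN. iLN lay below every other library, and mLN below spleen. Its change was -1.45 in iLN against spleen (SE 0.23, adjusted p = 0.000971), -1.59 in iLN against thymus (SE 0.23, adjusted p = 0.000388) and -1.08 in LNs against spleen and thymus (SE 0.15, adjusted p = 0.000239). Tnfsf10, which encodes TRAIL, was lower in LNs, with a log2 change of -0.71 (SE 0.15, adjusted p = 0.00699). That call was lost without a batch term (adjusted p = 0.0407) and was kept on leaving out only thymus replicate 1, mLN replicate 2 or iLN replicate 3, while without any other library the adjusted p went up to 0.0248. Cflar (189 TPM), the inhibitor of caspase-8, and Casp8 (101 TPM) had the highest levels of the list.

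All 12 genes that control BH3-only and Mcl1 levels were tested, and 4 were called in at least 1 of the 7 comparisons, against 3.94% of all genes. Each call was of a higher level in one or both LNs, for Foxo1 against thymus only. Foxo1, a forkhead factor that is known to drive Bcl2l11, had 93.9 to 164 CPM in thymus, 170.4 to 239.5 in spleen, 204 to 327 in mLN and 162 to 284 in iLN. Every spleen library was also above every thymus library, and neither LN was called against spleen. Between thymus and spleen, Foxo1 was not called in the main fit but was in 4 of 15 fits that left out 1 library. It was higher than in thymus by 0.99 in mLN (SE 0.15, adjusted p = 0.000462) and by 0.88 in iLN (SE 0.16, adjusted p = 0.00314), and both calls were lost without a batch term (adjusted p = 0.0185 and 0.0861). The second was also lost without thymus replicate 1, 3 or 4 or iLN replicate 2 or 4 (adjusted p up to 0.0286). Bcl2l11 itself differed by 0.44 between mLN and thymus (adjusted p = 0.205). Usp9x, a deubiquitinase that stabilises Mcl1, was higher in LNs by 0.62 (SE 0.10, adjusted p = 0.00127), and lost its call without a batch term (adjusted p = 0.0558) and, with a fold under 1.5, without mLN replicate 1 (0.54) or iLN replicate 4 (0.56). Zfp36 and Zfp36l1, which bind AU-rich mRNA and speed its decay, were higher in iLN than in spleen by 1.02 (SE 0.20, adjusted p = 0.00658) and 1.29 (SE 0.23, adjusted p = 0.00278), and Zfp36l1 in LNs by 0.77 (SE 0.16, adjusted p = 0.00734). These 3 calls were lost without a batch term, at adjusted p of 0.0240, 0.0121 and 0.0297. For Zfp36 the call was kept only without thymus replicate 4, iLN replicate 4 or any mLN library (adjusted p up to 0.0536 otherwise). For Zfp36l1 it was lost in iLN against spleen without spleen replicate 1 or 4 or iLN replicate 2 or 3 (up to 0.0349), and in LNs without any library but mLN replicate 1 or iLN replicate 4 (up to 0.0343). Huwe1 (115 TPM), a ubiquitin ligase of Mcl1, and Zfp36l1 (105 TPM) had the highest levels.

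**Figure D5:**
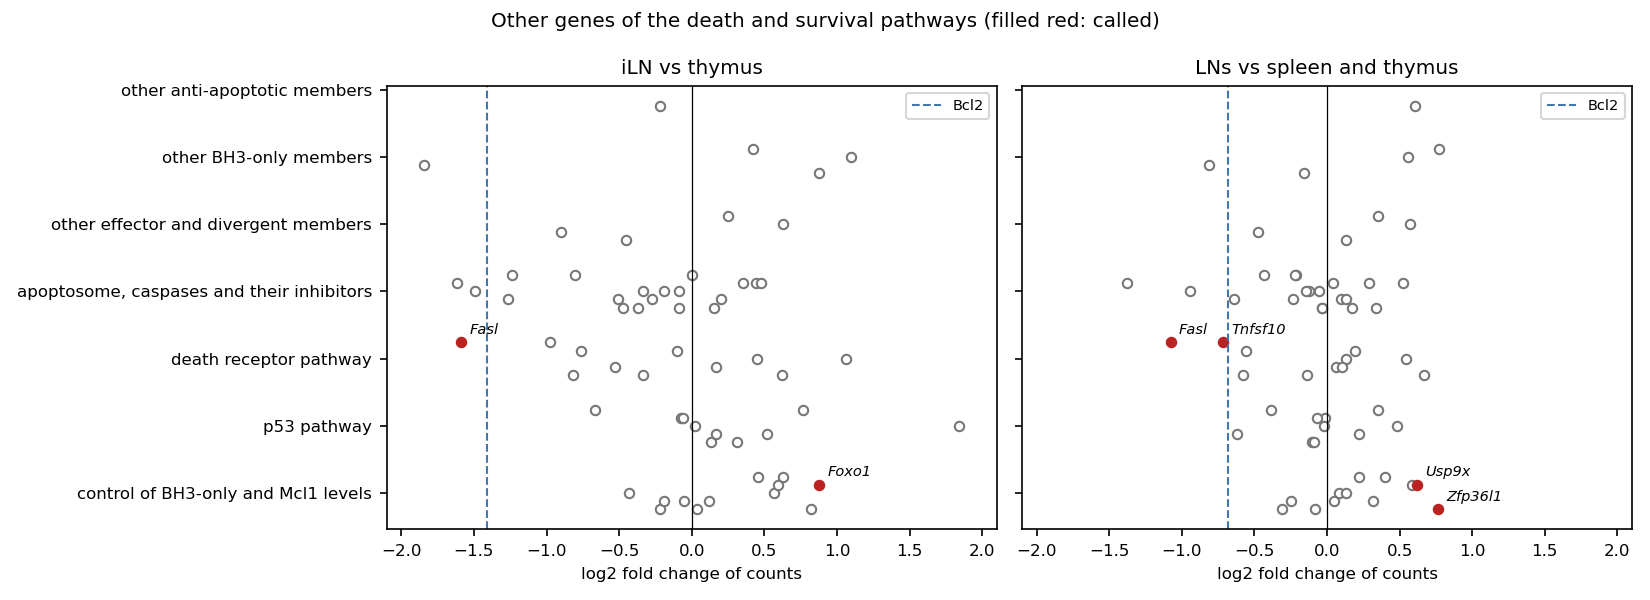
Log2 fold changes of counts (x axis) of the other genes of the death and survival paths in 2 comparisons, one point per gene, grouped by list (y axis); filled red points are called and named, and the dashed line marks Bcl2. Fasl (-1.59) lies at the level of Bcl2 (-1.41) in iLN against thymus, and Usp9x and Zfp36l1 lie to the right in LNs against spleen and thymus.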

How the data were processed

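RNA from sorted iNKT cells was sequenced on paired-end libraries. Per the labels and the study's methods, the authors trimmed reads with cutadapt 1.7.1 and quantified them on GRCm38.p6 with RSEM 1.2.31 on Bowtie2 2.2.9 alignments; the annotation release is not given in the sources used here. The deposited expected counts are RSEM's estimated reads per gene, rounded here to whole numbers, and the deposited TPM values are scaled by the authors for transcript length and depth. Genes were matched to symbols by Ensembl ID (48349 of 48795).

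Counts were normalised with TMM and tested in edgeR 4.0.16 (quasi-likelihood, R 4.3.3) on 15 samples and 13600 genes kept by filterByExpr, with tissue and batch as terms. p-values were Benjamini-Hochberg adjusted over all genes tested. CPM used TMM library sizes. DESeq2 1.42.0, limma 3.58.1 on log2(TPM + 1) or log2(TPM + 0.1), other filters, thinning, single batches and leaving out each library were alternatives. The fit was tested on simulated data. Fold changes are on the log2 scale of counts. Depth was 1152702 to 8670570 counts, and counting floors (3 counts) cover counting error only. Shares of the Bcl2 transcripts were solved from the length column with the transcript lengths of GENCODE. The members and gene lists, Bcl2 family genes and death pathway genes, were chosen with earlier results of these data known. All 10 members are described; of each list, the genes called in any comparison and the 2 with the highest mean TPM are named. No 2 replicates agreed within sampling noise.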

Additional observations from a re-analysis of the deposited data

Results flagged for a closer look

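Of the 30 sets of 4 libraries (each member in thymus, spleen and mLN), 1 held a library far from the other 3. Pmaip1 had 1.46 CPM in mLN replicate 3, from 7 counts, while the other mLN libraries had 0 to 0.145 CPM. The gap was 0.9 of the whole range. Chance gives about 1 such case in 20 sets, and Pmaip1 was under the filter on low counts.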

How the results depend on the processing

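Bcl2 kept its direction in thymus vs spleen, mLN vs thymus, iLN vs thymus and LNs vs spleen and thymus under every alternative, but 0 members were called between thymus and spleen without a batch term, with limma on TPM (either pseudocount) or in either batch alone. The same held between mLN and thymus, there also when only those groups were fitted. In LNs against spleen and thymus, 0 were called without a batch term, with limma or in either batch alone, and 2 at an adjusted p under 0.05 with no minimum fold. Between iLN and thymus 0 were called with limma or in the second batch alone, and over the 4 tissues with limma or in either batch alone. Leaving out 1 library gave 0 to 1 members between thymus and spleen, between mLN and thymus and in LNs against spleen and thymus. Bcl2 in mLN against spleen changed sign when counts were thinned to the smallest library (-0.040) and ranged from -0.18 to 0.17 over fits leaving out 1 library. Of the 43 other fold changes of members, 28 changed sign under at least 1 alternative (82 of 1261 values) and 0 changed their call.

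Libraries with the same replicate number deviated together by a mean r of 0.122 over 21 pairs (lowest 0.00151). Those of the same batch with another number did so by 0.107. The main fit did not take the numbers to pair samples, and the labels do not say what a number shares. However, 13 of 15 libraries correlated best with one of their own number. The paper also used a paired t-test on the TCR sequences of its RNA-seq samples. With the replicate number as a block, 0 members were called between thymus and spleen (adjusted p of Bcl2 0.0104) and between mLN and thymus (0.0132), and 1 was still called between iLN and thymus, in LNs against spleen and thymus and over the 4 tissues. Single batches leave 2 libraries or fewer per tissue, and genes with few counts (Bbc3, Pmaip1) are limited by depth.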

Other observations

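Bcl2 was also set against Mcl1 in the same library, a pair chosen after the values were seen and given without a test. The log2 ratio of their counts was 0.43 to 0.89 in thymus, -0.69 to 0.09 in spleen, -0.92 to 0.14 in mLN and -0.99 to -0.18 in iLN. Thymus lay above the other tissues without overlap, and the other 3 tissues overlapped. In thymus each library thus held more Bcl2 than Mcl1 counts, which are not corrected for length.

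Bmf, a BH3-only gene that was not called in any comparison, had 34.8 CPM in 1 mLN library while its median in mLN was 3.58 CPM, and 0 to 3.98 CPM in thymus. Cdkn1a, a target of p53, had 11.9 CPM in 1 mLN library and at most 1.74 CPM in thymus, spleen and iLN. Both were singled out after their values were seen.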
